A study of Mus musculus with 18 samples.

Results

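E proteins and their Id antagonists were followed in the embryonic mouse cerebral cortex, in mRNA and in ribosome footprints. The 7 genes were taken by name: Tcf3 (also called E2A), Tcf4 (E2-2) and Tcf12 (HEB) for the E proteins, and Id1, Id2, Id3 and Id4 for the antagonists. They are 7 of 55153 genes in the RNA-seq count table and 7 of 14348 genes with a count in every Ribo-seq library, and each passed the filter on low counts in every comparison.

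Cortices of C57BL/6 mice at embryonic day 15.5 came from 3 genotypes: wild type (Ctrl), Fto(f/f, Emx1-cre) (F-cKO) and Mettl3(f/f, Emx1-cre) (M-cKO). Mettl3 is the catalytic subunit of the enzyme complex that writes N6-methyladenosine on RNA, and Fto is a demethylase that removes methyl marks from RNA. Each genotype had 3 RNA-seq and 3 Ribo-seq libraries, 18 libraries in all, called separate biological repeats in the labels. The floxed lines were on a mixed strain background, and the control genotype carries neither allele in the labels, so an effect of Emx1-cre itself cannot be told apart from that of the deleted gene. The Emx1 promoter drives Cre in progenitors of the dorsal telencephalon and so in their excitatory neurons and glia, while interneurons, vessels, microglia and meninges in the same tissue keep the gene. Fewer cells of a type and less RNA per cell cannot be told apart in such bulk tissue.

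E proteins are basic helix-loop-helix factors that bind the E-box, the DNA motif CANNTG, as dimers with each other or with tissue-specific partners such as the proneural factor Neurog2 in the cortex. Id proteins have the helix-loop-helix but no basic region, so an E protein held by an Id protein cannot bind DNA. Id genes are well-known targets of BMP signalling, are abundant in neural progenitors and are linked to delayed differentiation, and the level of Id against E protein is a classical measure of the balance between progenitor upkeep and neurogenesis.

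The 3 Id promoters below are shown because the RNA of each followed its own pattern over the knockouts: Id2 fell in both, Id4 rose in both, and Id3 fell in F-cKO and rose in M-cKO. The sequences are from RefSeq on build GRCm38.p6 and hold the 250 bases before the annotated start site, 5′ to 3′ on the strand of the gene; capitals mark each E-box (CANNTG) and each CCAAT or its reverse complement ATTGG. Promoters were matched for 5 of the 7 genes, all but Id1 and Tcf4.
Id2, chr12:25096093-25096342, minus strand: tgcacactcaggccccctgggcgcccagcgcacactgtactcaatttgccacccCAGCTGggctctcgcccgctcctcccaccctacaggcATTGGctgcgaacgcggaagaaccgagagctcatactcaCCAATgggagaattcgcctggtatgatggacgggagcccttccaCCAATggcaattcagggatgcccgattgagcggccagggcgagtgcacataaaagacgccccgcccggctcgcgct
Id3, chr4:136143572-136143821, plus strand: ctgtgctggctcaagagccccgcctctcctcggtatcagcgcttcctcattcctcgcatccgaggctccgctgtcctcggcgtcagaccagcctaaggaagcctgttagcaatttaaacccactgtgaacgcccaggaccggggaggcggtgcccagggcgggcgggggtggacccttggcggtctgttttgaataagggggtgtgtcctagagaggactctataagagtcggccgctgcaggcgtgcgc
Id4, chr13:48260866-48261115, plus strand: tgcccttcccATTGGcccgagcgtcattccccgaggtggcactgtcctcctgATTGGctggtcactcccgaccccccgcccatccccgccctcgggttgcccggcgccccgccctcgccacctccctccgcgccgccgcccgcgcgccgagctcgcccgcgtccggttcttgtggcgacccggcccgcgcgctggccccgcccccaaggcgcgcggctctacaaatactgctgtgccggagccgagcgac

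The Id2 window held 1 E-box, CAGCTG, whose first base was at position -196 from the start site, and the Id3 and Id4 windows held none. Both strands were searched, and CANNTG reads alike on both. Of all 32851 promoter windows of this length, 66.2% held at least 1 CANNTG and 13.0% held a CAGCTG. The Tcf3 window (chr10:80433636-80433885, minus strand) held a CACTTG at position -54, and of the 3 annotated Tcf12 windows, all on chromosome 9, 1 held a CAGCTG, 1 a CAAGTG and 1 none. CCAAT boxes, counted on both strands and present in 33.8% of all windows, numbered 3 for Id2, 2 for Id4 and 0 for Id3. The GC content was 62.8% for Id2 and Id3 and 75.6% for Id4. A match of letters is a description and not a binding site.

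The 4 Id genes are compact and lie on different chromosomes, and the E protein genes are far longer. On GRCm38.p6, Id1 (ENSMUSG00000042745) spans 152736251 to 152737410 of chromosome 2, Id2 (ENSMUSG00000020644) 25093799 to 25096092 of chromosome 12, Id3 (ENSMUSG00000007872) 136143822 to 136145392 of chromosome 4 and Id4 (ENSMUSG00000021379) 48261116 to 48266028 of chromosome 13. Tcf3 (ENSMUSG00000020167) spans 80409541 to 80433976 of chromosome 10, Tcf12 (ENSMUSG00000032228) 71844252 to 72111893 of chromosome 9, and Tcf4 (ENSMUSG00000053477) covers 344539 bases of chromosome 18. The strand setting of the counting is not given in the sources used here, so reads from a gene and an overlapping partner cannot be told apart. The long noncoding RNA A330033J07Rik, which shares 1508 bases of span with Id4, stood between 0 and 0.141 FPKM. The pseudogene Rpl15-ps2 within Tcf12 stood between 1.51 and 2.69 FPKM, and the pseudogene Gm18821, also within Tcf12, between 0 and 0.131 FPKM. The long noncoding RNA Gm31439 shares 17820 bases of span with Tcf4 and was not matched in the RNA-seq table, so its level beside Tcf4 is not known here.

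Total counts over the genes used ran from 18504094 to 22592406 per RNA-seq library and from 10973699 to 35853227 per Ribo-seq library. The least covered value of the 7 genes was Id1, with at least 249 counts per RNA-seq library and at least 143 per Ribo-seq library, and the highest was Tcf4, with up to 20769 and 45136. Fto stood at 8.37 to 11.2 FPKM in Ctrl and at 2.43 to 7.56 FPKM in F-cKO RNA, the replicate 2 library lying closest to Ctrl, and its footprints were at 17.6 to 25.9 RPKM against 2.11 to 4.04 RPKM. Mettl3 footprints were at 9.16 to 9.93 RPKM in Ctrl and 6.02 to 6.78 RPKM in M-cKO, while its whole-gene RNA count, which includes exons outside the deleted part and so checks nothing, was higher in M-cKO (7.82 to 8.61 FPKM) than in Ctrl (5.07 to 6.43 FPKM). No marker found in the tables was at 0 in any group over the 11 cell type lists, and the cortical excitatory neuron list summed to 1668 to 1959 FPKM over the 9 RNA-seq libraries. The Ribo-seq library of F-cKO replicate 2 stood apart: its log2 values correlated with those of the other 8 libraries at Pearson's r of 0.856 to 0.896, against 0.929 to 0.991 among the others. Endothelial markers summed to 102 RPKM in it, against 5.95 to 14.1 RPKM in the Ctrl and M-cKO libraries. Footprint differences that involve F-cKO are therefore given with and without it.

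In control cortex, Id2 had by far the highest RNA level per length of the 7 genes. On the FPKM scale, which divides counts by the length set for each gene, Id2 stood at 144 ± 12.9 (SD, n = 3), above 99.1% of genes with a value above 0. Tcf3 followed at 41.9 ± 4.85, Tcf4 at 28.4 ± 2.12, Id4 at 23.1 ± 5.40, Id3 at 17.96 ± 1.46, Id1 at 13.6 ± 0.942 and Tcf12 at 9.93 ± 0.872 FPKM. The libraries of Tcf4 and Id4 overlapped, as did those of Id4 and Id3, so their order is not settled, while the other neighbours in the order did not overlap. The order between genes also depends on the lengths behind the deposited FPKM, which were not examined. Tcf4 had 14897 to 18430 counts per Ctrl library and Tcf3 2745 to 3984, although Tcf4 was lower in FPKM. In F-cKO cortex Id4 ranked behind Id2 and Tcf3 and ahead of Tcf4, and Tcf12 and Id3 overlapped. In M-cKO cortex Id4 (49.9 ± 3.22 FPKM) and Tcf3 (48.8 ± 5.08 FPKM) overlapped behind Id2, as did Tcf4 and Id3 (both 24.3 FPKM) and Id1 and Tcf12.

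The order was different in footprints. In control cortex Id2 was first at 233 ± 25.5 RPKM (SD, n = 3), followed by Id3 at 63.9 ± 10.5, Tcf4 at 53.0 ± 2.10, Id1 at 25.3 ± 3.91, Tcf3 at 17.4 ± 2.65, Id4 at 15.4 ± 3.03 and Tcf12 at 10.6 ± 0.323 RPKM. Id3 and Tcf4 overlapped, and so did Tcf3 and Id4. Among the E proteins, Tcf3 made up 52.1% ± 3.37 (SD, n = 3) of the summed E protein level in RNA but 21.4% ± 2.25 in footprints, while Tcf4 made up 35.5% ± 3.61 in RNA and 65.4% ± 1.62 in footprints. These shares, too, depend on the gene lengths behind FPKM and RPKM.

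**Figure D1:**
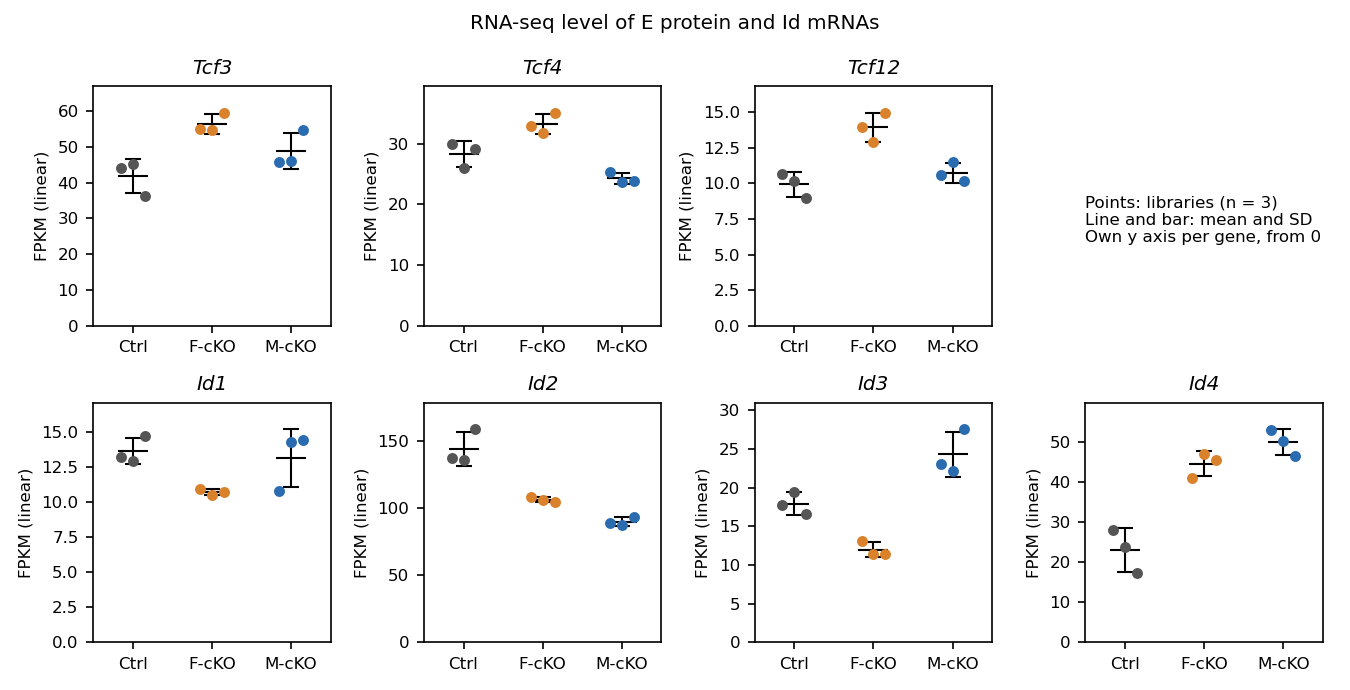
RNA-seq level in FPKM (linear axis from 0, its own scale for each gene) of the E protein genes (top) and Id genes (bottom) in Ctrl, F-cKO and M-cKO cortex; points are libraries, and the line and bar are the mean and SD of 3. Id2 is lower in both knockouts than in all Ctrl libraries, Id4 is higher in both, and Id3 lies below Ctrl in F-cKO (11.5 to 13.1) and above it in M-cKO (22.2 to 27.6).

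The first comparison asked how the loss of the demethylase Fto altered these mRNAs. By edgeR's quasi-likelihood test, 6 of the 7 changed in F-cKO RNA at an adjusted p below 0.05: Tcf3, Tcf12 and Id4 rose, and Id1, Id2 and Id3 fell. Across all 16944 genes tested 21.1% were called, 11.5% as higher and 9.57% as lower. All 7 genes had F-cKO libraries that did not overlap Ctrl in log2 CPM (counts scaled by library size), as did 41.6% of all genes.

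The E proteins Tcf3 and Tcf12 were higher without Fto. Tcf3, the E protein best known from lymphocyte development and a dimer partner of proneural factors, stood at 44.0, 45.3 and 36.3 FPKM in the 3 Ctrl libraries and at 55.0, 54.8 and 59.5 FPKM in F-cKO. Every F-cKO library was above every Ctrl library, and the difference was 0.42 ± 0.085 (log2, SE), with an adjusted p of 0.00996. Tcf12, which is also an E protein expressed by cortical progenitors, stood at 10.6, 10.2 and 8.95 FPKM in Ctrl and at 13.98, 12.9 and 14.9 FPKM in F-cKO. The groups did not overlap, and the log2 difference was 0.48 ± 0.080 (adjusted p = 0.00505). Tcf4 stood at 30.0, 25.97 and 29.1 FPKM in Ctrl and at 32.9, 31.8 and 35.1 FPKM in F-cKO. The Tcf4 libraries were also apart, but its difference of 0.22 ± 0.071 did not pass (adjusted p = 0.0532), and it passed under 3 of 14 alternatives, whose adjusted p ran from 0.0151 to 0.163.

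The Id genes did not move as one family in F-cKO. Id4, an Id gene of neural progenitors, stood at 28.1, 23.7 and 17.3 FPKM in Ctrl and at 41.0, 46.9 and 45.5 FPKM in F-cKO. All F-cKO values were far above those of Ctrl, a rise of 0.94 ± 0.14 (log2, SE) or 1.91-fold with an adjusted p of 0.00409, and only 4.39% of genes differed by as much in either direction. Id2 stood at 137, 136 and 159 FPKM in Ctrl and at 108, 106 and 105 FPKM in F-cKO, a fall of 0.45 ± 0.071 (adjusted p = 0.00443). Id3, together with Id1 a sensitive BMP target in many tissues, stood at 17.8, 19.5 and 16.6 FPKM in Ctrl and at 13.1, 11.5 and 11.5 FPKM in F-cKO. The Id3 groups did not overlap, and its log2 difference was -0.59 ± 0.095 (adjusted p = 0.0045). Id1 stood at 13.2, 12.9 and 14.7 FPKM in Ctrl and at 10.9, 10.5 and 10.7 FPKM in F-cKO. Its difference of -0.36 ± 0.10 passed (adjusted p = 0.0347) but held under 4 of 14 alternatives only, with adjusted p from 0.0298 to 0.131, and it was lost when any 1 of the 6 libraries was left out (0.0559 to 0.131). The calls of Tcf12, Id2, Id3 and Id4 held under all 14 alternatives, and that of Tcf3 under 13.

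Markers of other cells moved alongside in the F-cKO RNA libraries. Endothelial markers, in vessels where Id1 and Id3 are known to be active, summed to 63.8 to 72.0 FPKM in Ctrl and 47.0 to 53.5 FPKM in F-cKO, with 3 of 10 lower. Meningeal markers summed to 14.6 to 27.8 FPKM in Ctrl and 3.56 to 11.2 FPKM in F-cKO, with 4 of 8 lower. Astroglial markers summed to 98.5 to 116 FPKM in Ctrl and 85.6 to 88.1 FPKM in F-cKO, with 4 of 6 lower. Markers of intermediate progenitors, the neuron-producing cells that carry Neurog2 and Eomes, summed to 162 to 258 FPKM in Ctrl and 302 to 359 FPKM in F-cKO, with 4 of 5 higher. Markers of the ganglionic eminences and interneurons rose in 3 of 8 cases (median log2 difference 0.398), although their summed level overlapped between the groups. Mural cell markers fell in 3 of 5 cases, erythroid markers rose in 1 and fell in 1 of 8, excitatory neuron markers rose in 4 and fell in 1 of 7, radial glia markers rose in 4 and fell in 2 of 8, and no microglial (8) or choroid plexus marker (5) was called. The choroid plexus sum ran from 70.7 to 807 FPKM among the Ctrl libraries, which every comparison with Ctrl shares, and from 275 to 395 FPKM in F-cKO. The part of these cells in the Id and E protein values was not tested.

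In M-cKO RNA, 4 of the 7 genes changed: Id3 and Id4 rose, and Tcf4 and Id2 fell. Of all 16968 genes tested, 29.6% were called, 15.5% as higher and 14.1% as lower. In the log2 CPM of this comparison, 4 of the 7 genes had groups that did not overlap, as did 44.9% of all genes. Tcf3 overlapped on that scale but not in FPKM, where its lowest M-cKO library (45.7) lay just above the highest Ctrl library (45.3).

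Id4 was again the gene that moved most, standing at 52.9, 50.2 and 46.5 FPKM in M-cKO. Every M-cKO library was above the highest Ctrl library (28.1 FPKM), and the rise of 1.10 ± 0.13 (log2, SE), or 2.15-fold, had an adjusted p of 0.000166. Id2 stood at 89.5, 87.3 and 93.8 FPKM in M-cKO, all below the lowest Ctrl library (136 FPKM), a fall of 0.69 ± 0.073 (adjusted p = 8.68e-05). Id3 stood at 23.1, 22.2 and 27.6 FPKM, above all Ctrl libraries, a rise of 0.43 ± 0.098 (adjusted p = 0.00752). These 3 calls held under all 14 alternatives. Tcf4, whose E protein is abundant in the developing cortex, stood at 25.4, 23.8 and 23.8 FPKM, just below the lowest Ctrl library (25.97 FPKM). Its difference of -0.23 ± 0.066 passed (adjusted p = 0.0221) and held under 7 of 14 alternatives (0.00723 to 0.0964); it was lost without Ctrl replicate 1 or 3 (0.0964 and 0.0781) and without M-cKO replicate 2 or 3 (0.0855 and 0.0507).

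The other 3 did not pass in M-cKO RNA. Tcf3 stood at 45.7, 46.0 and 54.7 FPKM, and its log2 difference from Ctrl was 0.21, with a 95% confidence interval of 0.01 to 0.42 (adjusted p = 0.11). Tcf12 stood at 10.6, 11.5 and 10.2 FPKM, with a difference of 0.10 and an interval of -0.06 to 0.27 (adjusted p = 0.331). Id1 stood at 10.8, 14.3 and 14.4 FPKM, with a difference of -0.06 and an interval of -0.34 to 0.22 (adjusted p = 0.767). The Id1 library of M-cKO replicate 1 was below Ctrl and the other 2 lay among the Ctrl values.

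In M-cKO RNA, 8 of 8 markers of the ganglionic eminences and interneurons, cells outside the Emx1 lineage, were called higher, with a median log2 difference of 0.992. Their summed level was 87.7 to 89.4 FPKM in Ctrl, against 84.0 to 117 FPKM in F-cKO libraries and 124 to 166 FPKM in M-cKO libraries. Radial glia markers summed to 762 to 851 FPKM in Ctrl and 560 to 602 FPKM in M-cKO, with 3 of 8 called higher and 2 lower. Their median log2 difference was 0.123, so the fall of the sum was not that of the typical marker. Astroglial markers summed to 61.1 to 89.2 FPKM in M-cKO, with 4 of 6 lower. Endothelial markers summed to 48.9 to 67.7 FPKM (1 of 10 lower) and meningeal markers to 7.93 to 36.4 FPKM (0 of 8 called). Of the other lists, 3 of 5 intermediate progenitor, 1 of 6 choroid plexus and 1 of 8 erythroid markers rose, 4 of 7 excitatory neuron markers rose and 1 fell, 1 of 5 mural cell markers fell and 0 of 8 microglial markers were called. The part of these cells in the Id and E protein values was not tested.

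**Figure D2:**
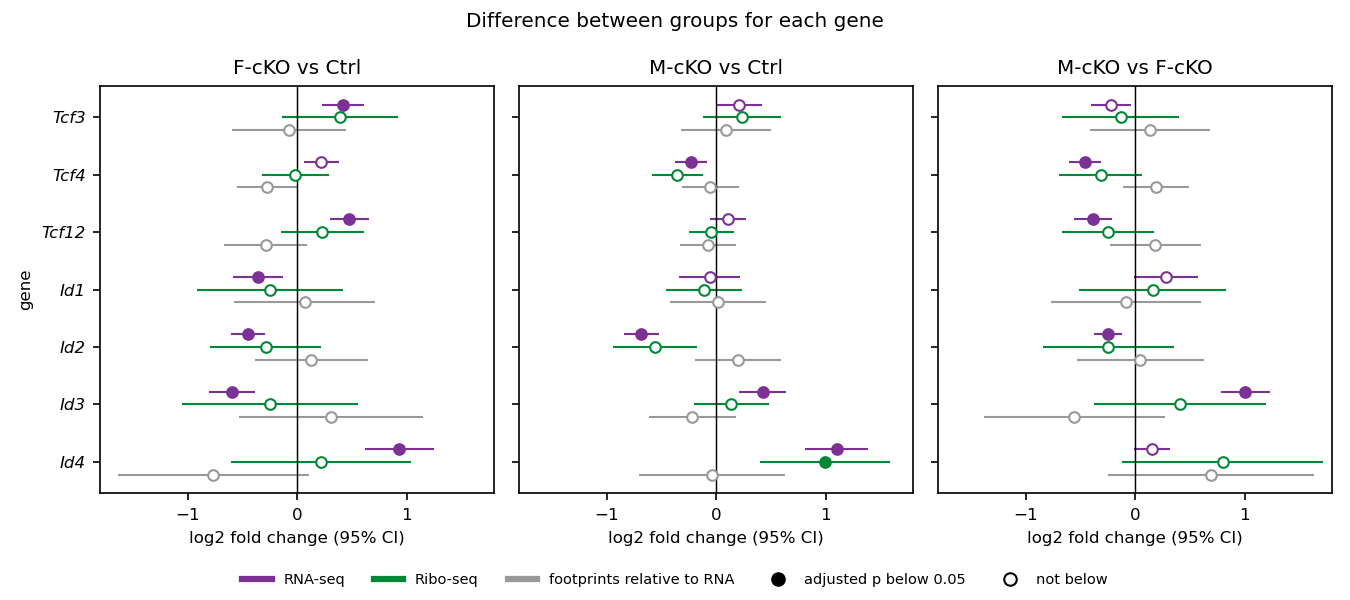
Log2 fold change with its 95% confidence interval for each gene in the 3 comparisons, from edgeR, for RNA-seq (purple), Ribo-seq (green) and footprints relative to RNA (grey); filled points have an adjusted p below 0.05. The RNA values of Id3 lie on opposite sides of 0 in F-cKO (-0.59) and M-cKO (0.43), and 1 footprint value, that of Id4 in M-cKO (1.00), is filled.

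The direct comparison of the knockouts asked where the loss of the writer and of the demethylase differed, without the Ctrl libraries that both other comparisons share. Between M-cKO and F-cKO RNA, 4 of the 7 genes differed, against 27.4% of 16802 genes (13.1% higher and 14.3% lower in M-cKO). Id3 was 2.01-fold higher in M-cKO than in F-cKO (log2 1.01 ± 0.10, adjusted p = 0.000147), with the M-cKO libraries at 22.2 to 27.6 FPKM against 11.5 to 13.1 FPKM. Tcf4 was lower in M-cKO by a log2 difference of -0.46 ± 0.067 (adjusted p = 0.00102), and Tcf12 by -0.38 ± 0.077 (adjusted p = 0.00536). These 3 calls held under all 14 alternatives. Id2 was lower by -0.25 ± 0.059 (adjusted p = 0.0124), a call that held under 11 of 14 alternatives and was lost without F-cKO replicate 2 or M-cKO replicate 1 or 2 (0.0535 to 0.062). Id4, higher than Ctrl in both knockouts, did not pass between them, with a difference of 0.16 and an interval of -0.01 to 0.33 (adjusted p = 0.144). Tcf3 at -0.22 (adjusted p = 0.0701) and Id1 at 0.29 (adjusted p = 0.134) did not pass either. Of the 7 genes, 5 (all but Id1 and Id4) had knockout groups that did not overlap, as did 43.7% of all genes. Higher in M-cKO were 7 of 8 ganglionic eminence and interneuron, 5 of 8 meningeal and 5 of 8 erythroid markers. So were 2 of 6 choroid plexus, 2 of 8 microglial and 1 of 5 mural markers. Lower were 2 of 5 intermediate progenitor and 1 of 5 astroglial markers. Radial glia (1 higher, 4 lower of 8), endothelial (2 and 1 of 10) and excitatory neuron markers (1 and 2 of 7) went both ways. Their part in the Id and E protein values was not tested.

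Summed over the family, Id mRNA was lower relative to E protein mRNA in both knockouts. The ratio of the summed Id FPKM to the summed E protein FPKM was 2.32, 2.36 and 2.80 in the Ctrl libraries, 1.70, 1.76 and 1.57 in F-cKO and 2.16, 2.14 and 2.06 in M-cKO, so that the 3 groups did not overlap. The mean was 0.673 of Ctrl in F-cKO and 0.850 of Ctrl in M-cKO. In F-cKO the Id sum was 0.873 of Ctrl and the E protein sum 1.29 of Ctrl, and in M-cKO they were 0.893 and 1.05. Id2 dominates the Id sum; with geometric means, in which each gene has equal weight, the ratio was 0.716 of Ctrl in F-cKO but 1.12 of Ctrl in M-cKO, so that the direction in M-cKO rests on how the genes are weighted. The sums also weight each gene by the length behind its FPKM, so the size of the ratio depends on those lengths. As the genes were chosen as a set, no p is given for this ratio.

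In RNA, the make-up of the Id pool shifted from Id2 towards Id4 in both knockouts. Id2 made up 69.9 to 76.6% of the summed Id FPKM in Ctrl, against 60.6 to 62.5% in F-cKO libraries and 50.2 to 51.5% in M-cKO libraries. Id4 made up 8.35 to 14.3% in Ctrl, against 23.6 to 26.8% in F-cKO libraries and 25.5 to 30.0% in M-cKO libraries. The share of Id3 was 7.98 to 10.1% in Ctrl, against 6.56 to 7.54% in F-cKO libraries and 12.8 to 15.1% in M-cKO libraries, and that of Id1 6.72 to 7.07%, 6.00 to 6.28% and 6.12 to 8.19%. Within Ctrl, replicate 3 had the highest Id2 and the lowest Id4 share.

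**Figure D3:**
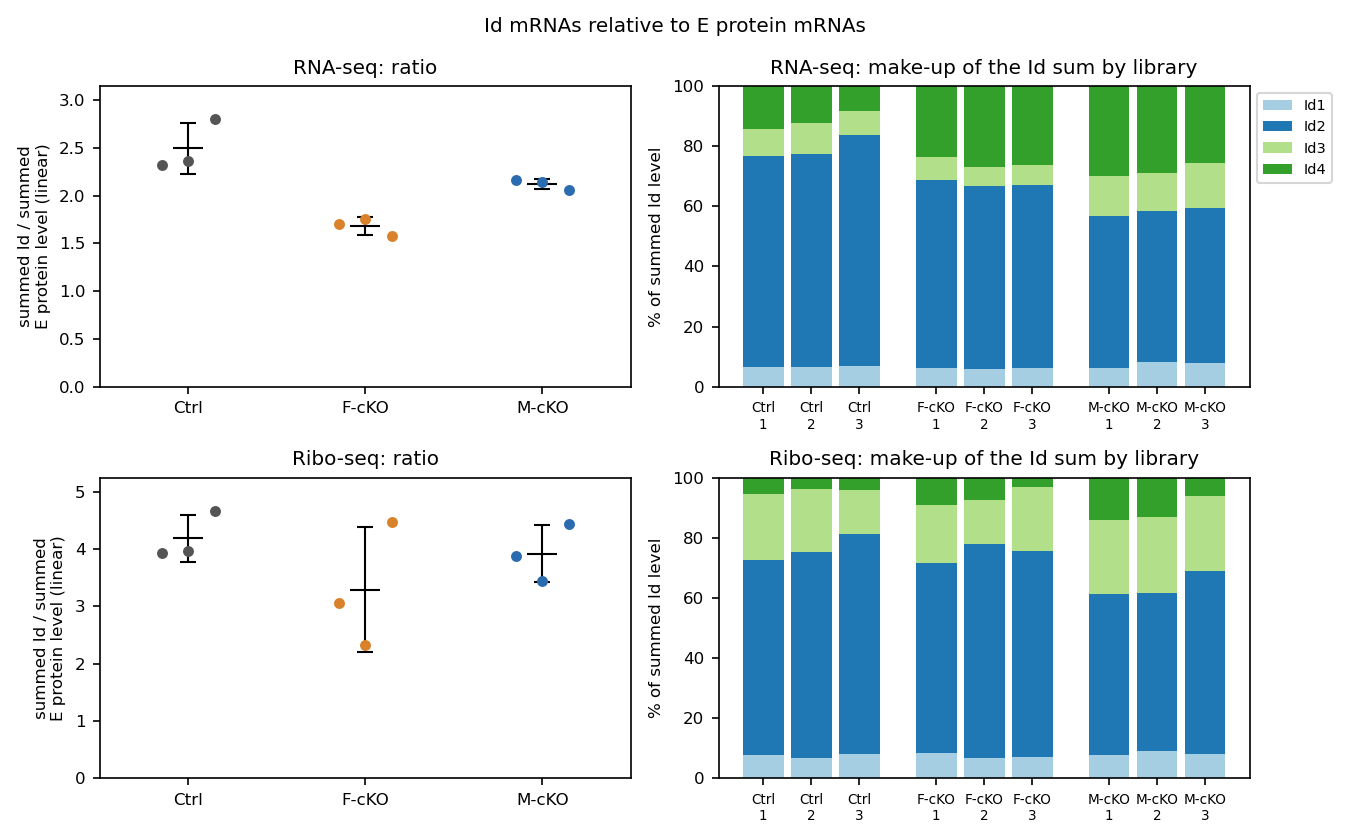
Left, summed Id level over summed E protein level in each library (points), with mean and SD of 3, from FPKM for RNA-seq and RPKM for Ribo-seq (linear axes from 0); right, the share of each Id gene in the summed Id level of each library. RNA ratios are 2.32 to 2.80 in Ctrl, against 1.57 to 1.76 in F-cKO libraries and 2.06 to 2.16 in M-cKO libraries, and footprint ratios overlap between groups.

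Ribosome footprints asked whether these differences reached the ribosome. In M-cKO, Id4 was the 1 of 7 genes called in footprints, where 14.6% of 14314 genes were called (7.13% higher, 7.5% lower). Id4 stood at 18.4, 12.4 and 15.3 RPKM in Ctrl and at 40.7, 30.5 and 20.2 RPKM in M-cKO. The lowest M-cKO library lay close above the highest Ctrl library, and the rise was 1.00 ± 0.26 (log2, SE), with an adjusted p of 0.041. This call held under 5 of 14 alternatives (adjusted p from 0.000223 to 0.197) and was lost when any library other than M-cKO replicate 3 was left out (0.0742 to 0.143). Id2 stood at 218, 220 and 263 RPKM in Ctrl and at 154, 121 and 199 RPKM in M-cKO, with a difference of -0.56 ± 0.17 (adjusted p = 0.0598). Tcf4 stood at 55.4, 51.8 and 51.8 RPKM in Ctrl and at 40.0, 37.1 and 46.4 RPKM in M-cKO, with a difference of -0.35 ± 0.10 (adjusted p = 0.0526). Neither passed, although the groups of Id2, Tcf4 and Id4 did not overlap, as for 39.4% of all genes. Without M-cKO replicate 3, Id2 (-0.74, adjusted p = 0.0173) and Tcf4 (-0.43, adjusted p = 0.0308) passed as well.

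Id3, called higher in M-cKO RNA, stood in footprints at 73.0, 66.4 and 52.4 RPKM in Ctrl and at 71.4, 57.8 and 81.0 RPKM in M-cKO. The groups overlapped, with a difference of 0.14 and a 95% confidence interval of -0.21 to 0.49 (adjusted p = 0.541). Tcf3 footprints differed by 0.24 (-0.12 to 0.59), Tcf12 by -0.04 (-0.25 to 0.16) and Id1 by -0.11 (-0.46 to 0.24), none of them called. In Ribo-seq the ganglionic eminence and interneuron markers summed to 39.4 to 59.3 RPKM in Ctrl and 66.1 to 128 RPKM in M-cKO, with 5 of 8 called higher. Radial glia markers summed to 1909 to 2156 RPKM in Ctrl and 1044 to 1479 RPKM in M-cKO, with 1 of 8 called higher and 1 lower and a median log2 difference of 0.0805. Astroglial markers summed to 142 to 173 RPKM in Ctrl and 87.0 to 98.7 RPKM in M-cKO, with 2 of 5 lower. Of the other lists, 1 of 10 endothelial markers was called lower, 1 of 8 erythroid markers higher, 1 of 7 excitatory neuron markers higher and 1 lower, and none of the intermediate progenitor, meningeal, mural, microglial or choroid plexus markers. The part of these cells in the Id4 value was not tested.

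In F-cKO footprints, edgeR called none of the 7 genes and 0 of 14335 genes in all; at an unadjusted p below 0.05 it gave 227 genes as higher and 91 as lower, and DESeq2 called 6 genes. Id2 stood at 191, 128 and 243 RPKM, Id3 at 58.4, 26.04 and 75.4 RPKM and Id4 at 27.9, 13.5 and 11.3 RPKM in F-cKO replicates 1, 2 and 3. The replicate 2 library, which stood apart, had the lowest Id1, Id2 and Id3 of all F-cKO libraries, and replicates 1 and 3 also differed widely in Id4. The log2 differences from Ctrl were 0.39 for Tcf3, -0.02 for Tcf4, 0.23 for Tcf12, -0.25 for Id1, -0.29 for Id2, -0.25 for Id3 and 0.22 for Id4, with SEs of 0.13 to 0.34. Without F-cKO replicate 2 they were 0.37, 0.00, 0.18, -0.02, -0.13, 0.05 and 0.31, and none passed. None of the 7 had groups that did not overlap, against 7.85% of all genes. The change of each of the 7 genes in F-cKO RNA lay within its footprint interval (for Id4 0.94 against -0.60 to 1.04), so footprint changes as large as those in RNA were not excluded. Without replicate 2 this held for 6 of the 7, while the footprint interval of Id3, -0.38 to 0.47, no longer held its RNA change of -0.59.

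Between M-cKO and F-cKO footprints edgeR called 0 of 14262 genes (710 higher and 444 lower at an unadjusted p below 0.05, and 200 genes by DESeq2). In log2 CPM, Tcf4 was the 1 gene whose knockout groups did not overlap, against 16.1% of all genes, and in RPKM its groups overlapped (37.1 to 46.4 in M-cKO, 44.9 to 55.6 in F-cKO); without F-cKO replicate 2 the lowest F-cKO library was at 52.4 RPKM and they did not. The largest difference among the 7 was that of Id4, at 0.80 with a 95% confidence interval of -0.12 to 1.72. That of Id3, the gene that differed most between the knockouts in RNA, was 0.41 (-0.38 to 1.198). Without F-cKO replicate 2, Id4 was at 0.71 (-0.29 to 1.70) and Id3 at 0.12 (-0.32 to 0.56, adjusted p = 0.794), an interval below the RNA difference of 1.01. The other 5 genes were then at -0.11 (Tcf3), -0.33 (Tcf4), -0.20 (Tcf12), -0.07 (Id1) and -0.41 (Id2), none of the 7 passed, and 5 genes in all were called. The footprint ratio of summed Id to summed E protein was 3.92 to 4.66 in Ctrl, against 2.32 to 4.47 in F-cKO libraries and 3.44 to 4.43 in M-cKO libraries, and the groups overlapped. The mean F-cKO ratio was 0.786 of that in Ctrl, and 0.901 without replicate 2, when the other F-cKO libraries, at 3.06 and 4.47, still overlapped with Ctrl.

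**Figure D4:**
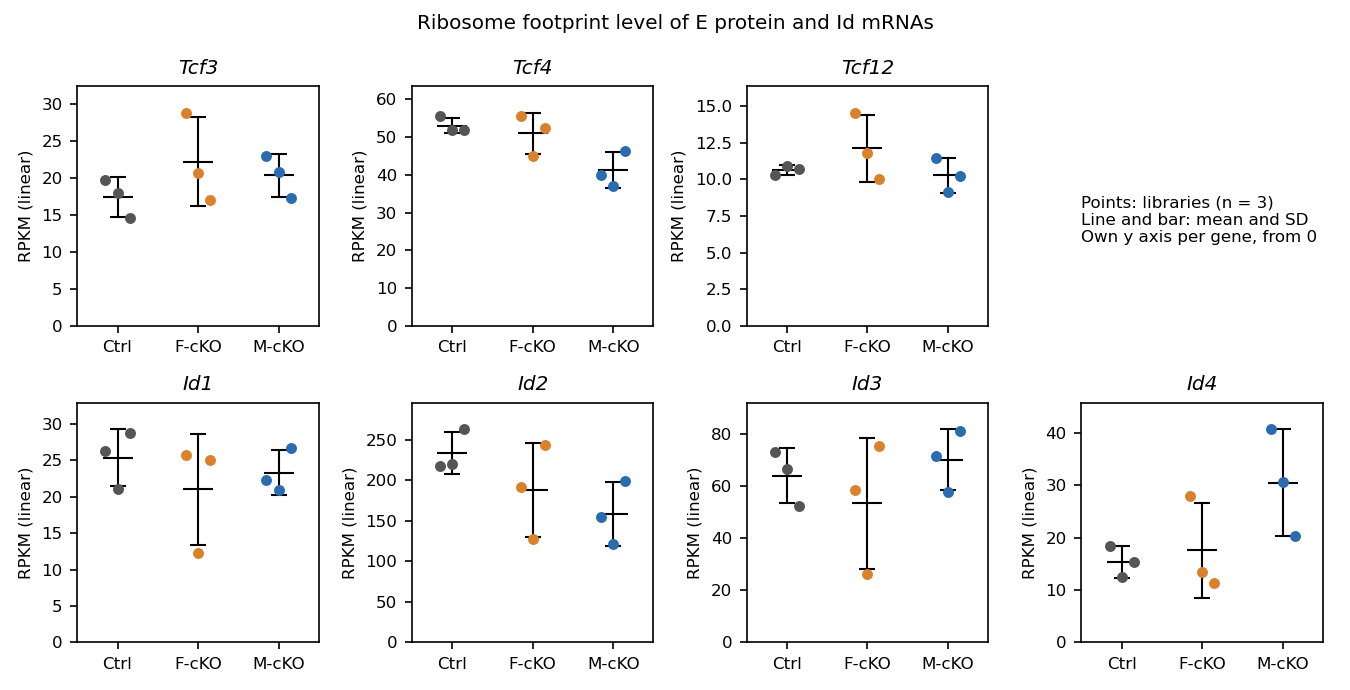
Footprint level in RPKM (linear axis from 0, its own scale for each gene) of the E protein genes (top) and Id genes (bottom) in Ctrl, F-cKO and M-cKO cortex; points are libraries, and the line and bar are the mean and SD of 3. Id4 lies at 20.2 to 40.7 in M-cKO and 12.4 to 18.4 in Ctrl, and the F-cKO libraries spread widely for Id1, Id2, Id3 and Id4.

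The 7 mRNAs differed in how many footprints they carried per unit of RNA. The ratio of mean RPKM to mean FPKM, which sets values from separately normalized tables side by side and depends on how much of each gene is coding, was 3.56 for Id3 in control cortex, above 97.1% of 12952 genes with a mean of at least 1 FPKM. It was 1.87 for Tcf4, 1.86 for Id1, 1.62 for Id2, 1.07 for Tcf12, 0.666 for Id4 and 0.416 for Tcf3, where the median gene had 0.757. Id3 and Id4, which stood at 17.96 and 23.1 FPKM in RNA, thus differed more in footprints (63.9 and 15.4 RPKM). The order of the 3 lowest and of Id3 at the top was alike in M-cKO: 2.88 for Id3, 0.956 for Tcf12, 0.611 for Id4 and 0.417 for Tcf3. In F-cKO, Id3 had 4.44 and Id4 0.395, close to Tcf3 at 0.393, and without the Ribo-seq library of replicate 2 these were 5.57, 0.441 and 0.406.

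**Figure D5:**
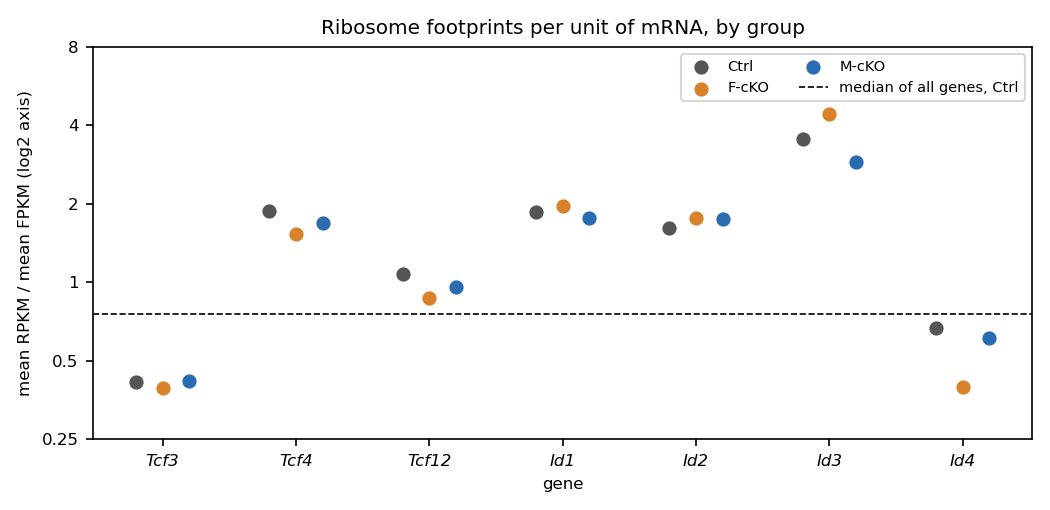
Mean footprint RPKM over mean RNA FPKM of each gene in each group (log2 axis), with the Ctrl median of 12952 genes (0.757) as a dashed line. Id3 is highest in every group (2.88 to 4.44), and Tcf3 is below the median in every group (0.393 to 0.417).

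Footprints relative to RNA were tested between groups in one model over both assays. No gene of the 7 was called in any of the 3 comparisons. In M-cKO against Ctrl 3.07% of 13208 genes were called (1.89% higher, 1.18% lower), and the 7 genes differed by -0.22 (Id3) to 0.20 (Id2) on the log2 scale; the intervals were -0.62 to 0.18 for Id3, -0.20 to 0.60 for Id2, -0.71 to 0.63 for Id4 and -0.32 to 0.20 for Tcf4. In F-cKO against Ctrl 0 of 13225 genes were called by edgeR (411 higher and 817 lower at an unadjusted p below 0.05, and 47 genes by DESeq2). Id4 differed by -0.77 there, with an interval of -1.64 to 0.10 (adjusted p = 0.541), and by -0.62 without Ribo-seq F-cKO replicate 2. Id3 differed by 0.31 (-0.53 to 1.15), and by 0.64 without that library, an interval of 0.21 to 1.07 that no longer held 0, although the value did not pass over all genes (adjusted p = 0.207). Between the knockouts 0 of 13162 genes were called by edgeR (321 higher and 220 lower at an unadjusted p below 0.05, and 25 genes by DESeq2), and the intervals of the 7 genes all held 0. Without Ribo-seq F-cKO replicate 2 that of Id3 did not: its difference moved from -0.56 to -0.85 ± 0.20 (-1.28 to -0.41), with an adjusted p of 0.241.

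Partners, regulators and cofactors of the 2 families were examined as whole lists. Of 20 bHLH partners of E proteins, 15 were tested in RNA, and 3 rose and 4 fell in F-cKO (median log2 difference 0.14) while 5 rose and 2 fell in M-cKO (median 0.16). The median over all genes was -0.01 in both comparisons, and the share of all genes called was 21.1% in F-cKO RNA (11.5% higher, 9.57% lower) and 29.6% in M-cKO RNA (15.5% higher, 14.1% lower). Nhlh1, a bHLH factor of newborn neurons, rose by 1.06 ± 0.25 in F-cKO (adjusted p = 0.0169) and 1.495 ± 0.21 in M-cKO (adjusted p = 0.000501). Neurod2, a factor of differentiating excitatory neurons, rose by 0.52 ± 0.059 in M-cKO (adjusted p = 0.00012) and was at 0.05 in F-cKO (adjusted p = 0.613). Bhlhe22 fell by 0.38 ± 0.096 in F-cKO (adjusted p = 0.0218) and by 0.31 ± 0.058 in M-cKO (adjusted p = 0.00222). In M-cKO footprints 0 of 14 partners were called, against 14.6% of all genes.

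The Hes and Hey repressors, bHLH factors of which Hes1, Hes5 and the Hey genes are known as Notch targets in progenitors, were called in 1 of 6 cases in F-cKO RNA and in 4 of 6 in M-cKO RNA, all as higher, where 11.5% and 15.5% of all genes were higher. In M-cKO footprints 0 of 6 were called, against 14.6% of all genes. Hey1 rose by 0.58 ± 0.12 in F-cKO (adjusted p = 0.0101) and by 1.07 ± 0.12 in M-cKO (adjusted p = 0.000104). Hes1 rose by 0.56 ± 0.15 in M-cKO (adjusted p = 0.0189) and was at 0.62 ± 0.20 in F-cKO (adjusted p = 0.052). Hes6, which counteracts Hes1 and promotes differentiation, rose by 0.31 ± 0.065 in M-cKO (adjusted p = 0.00507). The medians of the list were 0.325 in F-cKO and 0.41 in M-cKO.

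Of 25 BMP ligands, receptors and Smads, the pathway that induces Id genes, 7 rose and 3 fell in F-cKO RNA (median -0.00353), and 7 rose and 2 fell in M-cKO RNA (median 0.25). Over all genes 11.5% rose and 9.57% fell in F-cKO, and 15.5% rose and 14.1% fell in M-cKO. Acvr2b, a type II receptor of activins and BMPs, rose by 1.09 ± 0.11 in F-cKO (adjusted p = 0.00293) and by 0.98 ± 0.12 in M-cKO (adjusted p = 0.000159). Acvr1, a type I BMP receptor, fell by 0.55 ± 0.074 in M-cKO (adjusted p = 0.000327) and was at -0.23 in F-cKO (adjusted p = 0.0615). Smad7, an inhibitory Smad, rose by 0.69 ± 0.11 in M-cKO (adjusted p = 0.000807) and was at 0.06 in F-cKO (adjusted p = 0.797). In M-cKO footprints 0 of 23 were called, against 14.6% of all genes.

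Among 10 cofactors of E proteins, 2 rose and 1 fell in F-cKO RNA (median 0.04), and 3 rose and 1 fell in M-cKO RNA (median 0.18). These counts are close to the shares of all genes called, 21.1% and 29.6%. Cbfa2t3, a corepressor of the ETO family that binds E proteins, rose by 0.72 ± 0.066 in M-cKO RNA (adjusted p = 4.76e-05). It was the 1 of 10 called in M-cKO footprints (adjusted p = 0.0181), where 14.6% of all genes were called. Lmo4, a LIM-only adaptor of cortical neurons, fell by 0.64 ± 0.105 in F-cKO (adjusted p = 0.00486) and by 0.37 ± 0.070 in M-cKO (adjusted p = 0.0028). The coactivator Ep300 rose by 0.41 ± 0.074 in F-cKO (adjusted p = 0.00659) and by 0.32 ± 0.079 in M-cKO (adjusted p = 0.0111).

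Of the cell cycle inhibitors and pocket proteins, which act downstream of E proteins or bind Id2, 7 of 9 were tested, and 2 rose and 0 fell in each knockout (medians 0.235 and 0.04), close to the 21.1% and 29.6% of all genes called. In M-cKO footprints 1 of the 7 rose, Cdkn2c (1.08 ± 0.30, adjusted p = 0.0491), and 1 fell, the pocket protein Rb1 (-0.49 ± 0.10, adjusted p = 0.0256), which was named here after its value was seen. Over all genes 7.13% rose and 7.5% fell in M-cKO footprints. Cdkn1a, the p21 inhibitor, rose by 1.03 ± 0.12 in M-cKO (adjusted p = 0.000139) and was at 0.23 in F-cKO (adjusted p = 0.222). Cdkn2c, the p18 inhibitor, rose by 0.53 ± 0.085 in M-cKO (adjusted p = 0.000968). Rbl1, the pocket protein p107, rose by 0.72 ± 0.16 in F-cKO (adjusted p = 0.0136) and was at 0.18 in M-cKO (adjusted p = 0.342). Of 5 genes of Id protein turnover, 3 rose in F-cKO (median 0.23), and 1 rose and 1 fell in M-cKO (median 0.08). Over all genes 11.5% rose in F-cKO RNA, and 15.5% rose and 14.1% fell in M-cKO RNA. In M-cKO footprints 1 of the 5 fell, against 7.5% of all genes. It was Cops5 (-0.72 ± 0.094, adjusted p = 0.00817), also named after its value was seen. Usp1, the deubiquitinase that stabilizes Id proteins, rose by 0.50 ± 0.076 in F-cKO (adjusted p = 0.0041) and by 0.60 ± 0.068 in M-cKO (adjusted p = 0.000119). Its cofactor Wdr48 (0.23 ± 0.055, adjusted p = 0.0188) and the ubiquitin ligase Huwe1 (0.38 ± 0.062, adjusted p = 0.00478) rose in F-cKO and were at 0.08 and 0.11 in M-cKO.

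For each gene the 3 others with the most similar RNA profile were named, by the highest Pearson's r of log2 CPM over the 9 RNA-seq libraries among 17376 genes; the libraries share 3 group means, so r was also taken within groups. Id4 was nearest to Myo10 (r = 0.990, and 0.975 within groups), Gli3 (0.990 and 0.935) and Prdm16 (0.989 and 0.911), the last pair being transcription factors of radial glia, and over the 9 Ribo-seq libraries, F-cKO replicate 2 included, r was 0.756, 0.827 and 0.713. Id2 was nearest to Sybu, Khdrbs3 and Tmem59l (r from 0.988 to 0.989), and in footprints r was 0.949, 0.865 and -0.275. Id3 was nearest to Nipsnap1, Cox8a and Rp9 (0.987 to 0.991), with 0.970, 0.490 and 0.0166 in footprints. Id1 was nearest to Cd163, a macrophage scavenger receptor, Emp3 and Pld2 (0.958 to 0.975), with -0.213, -0.483 and 0.751 in footprints. Tcf3 was nearest to Ddr1, Actl6a and Incenp (0.982 to 0.992), with 0.398, 0.749 and 0.764 in footprints, and Tcf12 to Washc5, Dek and Cbl (0.976 to 0.992), with 0.205, 0.800 and 0.511. Tcf4 was nearest to Plcb1, 4930565N06Rik and 2610005L07Rik (0.987 to 0.993), with 0.926 for Plcb1 and 0.516 for 2610005L07Rik in footprints. Within groups, r was 0.840 to 0.876 for the neighbours of Id2, 0.805 to 0.909 for Id3 and 0.907 to 0.957 for Id1. It was 0.935 to 0.986 for those of Tcf3, 0.839 to 0.955 for Tcf12 and 0.904 to 0.956 for Tcf4. The neighbours were picked as the highest of many values over few libraries, and all r values are given as a description.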

How the data were processed

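RNA-seq and Ribo-seq libraries of embryonic cortex, 3 per genotype and assay, were grouped by their labels. The authors deposited raw counts per gene for both assays, with FPKM per gene for RNA-seq and RPKM per gene for Ribo-seq, and these values were used as deposited. The submitters' processing notes name HISAT2 2.0.5, TopHat2, HTSeq, DESeq2 1.14.1 and mm10, while strand settings are not given in the sources used here. Of the 54838 genes with Ribo-seq counts, 40490 were blank in 8 libraries and were not used.

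Genes passing filterByExpr (minimum count 10, minimum total 15) were tested with edgeR 4.0.16 (R 4.3.3; TMM scaling, quasi-likelihood test) on the 6 libraries of each comparison. Footprints relative to RNA were tested as the interaction over 12 libraries. P-values were Benjamini-Hochberg adjusted over all genes tested, with a threshold of 0.05, and the code was tested on simulated data. Values after ± are SEs for fold changes and SDs for levels. The alternatives were DESeq2 1.42.0, RLE scaling, no filter, all groups in one fit, a replicate block, limma 3.58.1 on log2 of FPKM or RPKM plus a pseudocount of 1 or 0.1 (filtered at a mean of 0.1, or unfiltered), and leaving out each library. Counts over 18 libraries limit precision by depth, and p-values measure the spread between libraries labelled as biological repeats. The study's Ribo-seq methods describe 3 cortical samples in words that may mean a single litter, so libraries may share one; whether cortices were pooled is not given in the sources used here.

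The 7 genes, the pathway lists and the marker lists were chosen with earlier results of these data known. Named were the 7 genes, the 3 nearest by RNA profile to each, and at most 3 genes per pathway list with the smallest adjusted p in RNA of either knockout. Rb1 and Cops5 fall outside this rule and were named after their footprint values were seen, to identify counts of 1. Same-numbered libraries of different genotypes did not deviate together (r of -0.278 to 0.163 over genes), so the numbers were not taken as pairs.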

Additional observations from a re-analysis of the deposited data

Results flagged for a closer look

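In RNA, 4 of the 7 genes differed between the knockouts by edgeR's test of M-cKO against F-cKO itself, against 27.4% of 16802 genes. The log2 difference was 1.01 for Id3, -0.46 for Tcf4, -0.38 for Tcf12 and -0.25 for Id2. In each the 3 M-cKO libraries did not overlap the 3 F-cKO libraries. These genes were selected by the test of those same libraries, so this adds no support. Against the Ctrl libraries that both comparisons share, Id3 was at -0.59 in F-cKO and 0.43 in M-cKO, Tcf4 at 0.22 and -0.23, Tcf12 at 0.48 and 0.10, and Id2 at -0.45 and -0.69.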

How the results depend on the processing

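Of the 945 values of single genes under an alternative, 864 kept their direction and side of the threshold, 30 lost a call, 14 gained one and 37 changed sign, all 37 for genes that were not called. In M-cKO footprints the count of genes called, 1 of 7, was 3 with DESeq2, 0 with all groups in one fit and 0 with each of the 3 limma settings, and 0 to 3 when 1 library was left out. The replicate block made it 2 (Id4 and Id2). In RNA the block made 6 calls 5 in F-cKO, where Id1 was lost (adjusted p = 0.0854), and 4 calls 5 in M-cKO against F-cKO, where Tcf3 was gained (adjusted p = 0.0395), and it left the counts of the other 6 comparisons as they were. The ratio of summed Id to summed E protein RNA relative to Ctrl became 0.716 for F-cKO and, in M-cKO, 1.12 once geometric means were used, and 1.12 for M-cKO footprints; with 1 library left out it was 0.651 to 0.717 and 0.822 to 0.905 in RNA.

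Signs changed when 1 library was left out, over these log2 ranges: in M-cKO RNA, Id1 -0.12 to 0.07. In F-cKO footprints they were Tcf4 -0.04 to 0.04, Id3 -0.53 to 0.05 and Id4 -0.21 to 0.50. In M-cKO footprints they were Id1 -0.23 to 0.01 and Tcf12 -0.09 to 0.03, and against F-cKO Id1 -0.07 to 0.29 and Tcf3 -0.35 to 0.04. For footprints relative to RNA they were, in F-cKO, Tcf3 -0.29 to 0.09, Id1 -0.06 to 0.34, Id2 -0.10 to 0.33 and Id3 -0.01 to 0.64. In M-cKO they were Tcf3 -0.02 to 0.20, Tcf4 -0.16 to 0.01, Id1 -0.11 to 0.12, Id2 -0.01 to 0.33 and Id4 -0.27 to 0.17, and against F-cKO Tcf3 -0.04 to 0.32, Id1 -0.31 to 0.05 and Id2 -0.16 to 0.26. For footprints relative to RNA, Id1 in M-cKO against Ctrl was also at -0.01 with DESeq2 and with RLE scaling. The causes were not tested.

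Counts over all genes moved more. In F-cKO RNA, 3576 genes were called, against 2130 with the replicate block, 1857, 1966 and 829 with limma and 1543 without Ctrl replicate 3. With unfiltered limma M-cKO RNA went from 5024 to 2919 and M-cKO against F-cKO from 4599 to 2130, which was 2767 without F-cKO replicate 2. In M-cKO footprints 2093 became 35 with all groups in one fit, 1319 with the block, 562, 689 and 195 with limma, and 177 to 2547 with 1 library left out. For footprints relative to RNA in M-cKO, 405 became 1044 with DESeq2, 11 with all groups in one fit, 172 with the block and 65 to 1054 with 1 library left out. Replicate spread was wider in footprints than in RNA: edgeR's biological coefficient of variation was 0.379 in F-cKO against Ctrl, and 0.204 without F-cKO replicate 2, against 0.103 in RNA. In M-cKO against Ctrl it was 0.230 in footprints and 0.0938 in RNA, and in M-cKO against F-cKO 0.413 and 0.103.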
